A study of Sus scrofa with 12 samples.

Results

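Antioxidant enzymes were followed through 10 gene symbols in the duodenal mucosa of 12 pigs (Sus scrofa): GPX1, GPX2 and GPX4 (glutathione peroxidases), SOD1 and SOD2 (superoxide dismutases), CAT (catalase), PRDX1 and PRDX6 (peroxiredoxins), TXNRD1 (thioredoxin reductase) and NQO1 (a quinone reductase). A probe set belonged to a gene where the annotation of the array gives it that symbol. By this rule 9 of the 10 genes had 19 probe sets, of 47722 probe sets other than controls on the array. GPX1, PRDX1 and NQO1 had 1 probe set each, GPX2, SOD2, PRDX6 and TXNRD1 had 2 each, GPX4 had 3 and SOD1 had 5. Catalase is named by no probe set in the annotation used here and was not analysed here. Where a gene had several probe sets, the brightest on average over the 12 pigs stands for it, and the others served as a check.

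The study set pigs of high feed efficiency (FE, growth gained per unit of feed eaten) against pigs of low FE, with 6 pigs in each group. High FE pigs 1, 2 and 3 were male and high FE pigs 4, 5 and 6 were female, and in low FE pigs 1, 2 and 3 were male and 4, 5 and 6 female. All were 140 days old, and RNA from the duodenal mucosa of each pig was hybridised to an Affymetrix array of its own. The labels name neither a breed nor a diet, and they do not say how FE was scored. Their identifiers fall into 2 runs, of which the first, from 301 to 310, holds 8 pigs, 4 of each FE group. All males and female pig 4 of each FE group are in the first run, and female pigs 5 and 6 of each group are in the second. Sex and run are therefore partly confounded. A difference between the sexes, also in the FE difference, cannot be fully told apart from one between the runs.

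Reactive oxygen species are held down by enzymes that work in sequence. Superoxide dismutases turn superoxide into hydrogen peroxide, and catalase, glutathione peroxidases and peroxiredoxins reduce that peroxide or lipid peroxides further, drawing on glutathione or thioredoxin that reductases regenerate. Many of these genes are targets of the transcription factor NRF2, and the gut epithelium meets peroxides from food, bile, microbes and its own oxidases.

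All values are log2 expression values as deposited, and a difference is the high FE mean less the low FE mean, or the male mean less the female mean, on that scale, with the standard error (SE) of limma's linear model. The 12 array medians lay between 3.83 and 3.91. The array background, taken as the median of 69 antigenomic probe sets that match no pig transcript, lay between 2.16 and 2.53. It was 2.30 ± 0.12 in high FE and 2.38 ± 0.10 in low FE (SD, n = 6 each). On the first principal component, which held 24.9% of the variance, the arrays of high FE pigs 1, 5 and 2 were the 3 lowest of the 12, at -68.0, -64.3 and -36.0, so values that rest on them are also given without them. Of 10 enterocyte markers 9 were measured, and their mean level per pig was between 8.86 and 10.24 in high FE and between 8.33 and 10.45 in low FE. Markers of hepatocytes, a cell type the mucosa should lack, lay between 2.95 and 3.59 in high FE and between 2.96 and 3.37 in low FE. Pancreatic acinar markers stayed between 2.83 and 2.98 in high FE and between 2.94 and 3.39 in 5 low FE pigs, but reached 6.49 in low FE pig 6. In a bulk sample of mucosa, fewer cells of a type and less RNA per cell cannot be told apart.

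None of the 9 genes differed between high and low FE at an adjusted p under 0.05 (limma, Benjamini-Hochberg adjustment over 33405 probe sets), and none had an unadjusted p under 0.05. Over all probe sets tested, 0% passed the adjusted threshold and 5.99% the unadjusted one. The lowest adjusted p among the 9 was 0.753, for GPX4. The difference was below 0 for 6 of the 9 genes, with a median of -0.15, whereas it was below 0 for 54.0% of all probe sets, whose median was -0.02. FE groups overlapped for every one of the 19 probe sets. Of all probe sets 0.260% had FE groups that did not overlap.

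The glutathione peroxidases, 3 selenium-dependent enzymes, all had lower mean values in high FE, without passing the test. GPX4, which reduces lipid hydroperoxides inside membranes and so guards against ferroptosis, had a lowest value of 7.68, a median of 8.22 and a highest value of 8.71 in high FE, against 8.23, 8.56 and 8.77 in low FE. High FE pigs 1, 2 and 5 lay below every low FE pig, and the other 3 lay within the low FE range. The difference was -0.32 ± 0.19 (SE), a 0.800-fold level with a 95% interval of 0.603 to 1.06 (adjusted p = 0.753, limma).

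GPX1, the cytosolic peroxidase found in most cells, ranged in high FE from 8.21 over a median of 9.21 to 9.36, against 8.73, 9.29 and 9.75 in low FE. High FE pigs 1 and 5 stood apart at 8.22 and 8.21, and the other 4 high FE pigs lay between 9.20 and 9.36, inside the low FE range. The difference was -0.33 ± 0.25 (SE), with a 95% interval of -0.88 to 0.22 (adjusted p = 0.767, limma). GPX1 has a single probe set here, so no second probe set checks this value.

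GPX2, the glutathione peroxidase of the gastrointestinal epithelium, gave the widest values of the 9 genes. Its lowest, median and highest values were 5.92, 7.32 and 9.28 in high FE, against 7.32, 7.82 and 8.97 in low FE. The highest and the lowest of all 12 pigs were both of high FE, pig 3 and pig 5. The difference was -0.53 ± 0.48 (SE), with a 95% interval of -1.57 to 0.51 (adjusted p = 0.786, limma). It was -0.92 without high FE pig 3 (unadjusted p = 0.0344, adjusted p = 0.616) and -0.22 without high FE pig 5.

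SOD1, the copper and zinc enzyme of the cytosol, had a lowest value of 9.58, a median of 9.76 and a highest value of 10.31 in high FE, against 9.56, 9.86 and 10.08 in low FE. Both groups covered nearly the same span, and only high FE pig 6 lay above the low FE pigs. Its difference was 0.00 ± 0.14 (SE), with a 95% interval of -0.29 to 0.30, or 0.818-fold to 1.23-fold. SOD2, the manganese enzyme of mitochondria, had values of 7.74, 7.90 and 8.28 in high FE, against 7.61, 7.72 and 8.04 in low FE. It was the gene of the 9 with the largest difference above 0, at 0.15 ± 0.12 (SE) and an adjusted p of 0.773 (limma). High FE pig 3 alone reached above the low FE pigs.

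PRDX1, an abundant cytosolic peroxiredoxin that takes its electrons from thioredoxin, had a lowest value of 9.71, a median of 10.14 and a highest value of 10.27 in high FE, against 9.98, 10.25 and 10.49 in low FE. The difference was -0.15 ± 0.13 (SE), with a 95% interval of -0.44 to 0.14 (adjusted p = 0.779, limma). PRDX6, which reduces phospholipid hydroperoxides and uses glutathione, had 8.02, 8.25 and 8.42 in high FE, against 8.11, 8.25 and 9.03 in low FE. The group medians were the same at this rounding, and the highest value belonged to low FE pig 1 alone. Its difference was -0.12 ± 0.16 (SE, adjusted p = 0.849, limma), and 0.03 without low FE pig 1.

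TXNRD1, the cytosolic selenoenzyme that recharges thioredoxin, had a lowest value of 7.97, a median of 8.85 and a highest value of 9.09 in high FE, against 8.08, 8.77 and 8.93 in low FE. The difference was 0.04 ± 0.24 (SE), with a 95% interval of -0.48 to 0.57 (adjusted p = 0.975, limma). In both groups the values left a gap: high FE pigs 1 and 4 and low FE pigs 3 and 4 were between 7.97 and 8.12, and the other 8 pigs were between 8.66 and 9.09. NQO1, a quinone reductase that serves as a marker of NRF2 activity, had 6.76, 7.31 and 8.26 in high FE, against 6.83, 7.67 and 8.40 in low FE. High FE pig 1 alone lay below the low FE pigs. Its difference was -0.28 ± 0.31 (SE), with a 95% interval of -0.94 to 0.39 (adjusted p = 0.818, limma).

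**Figure D1:**
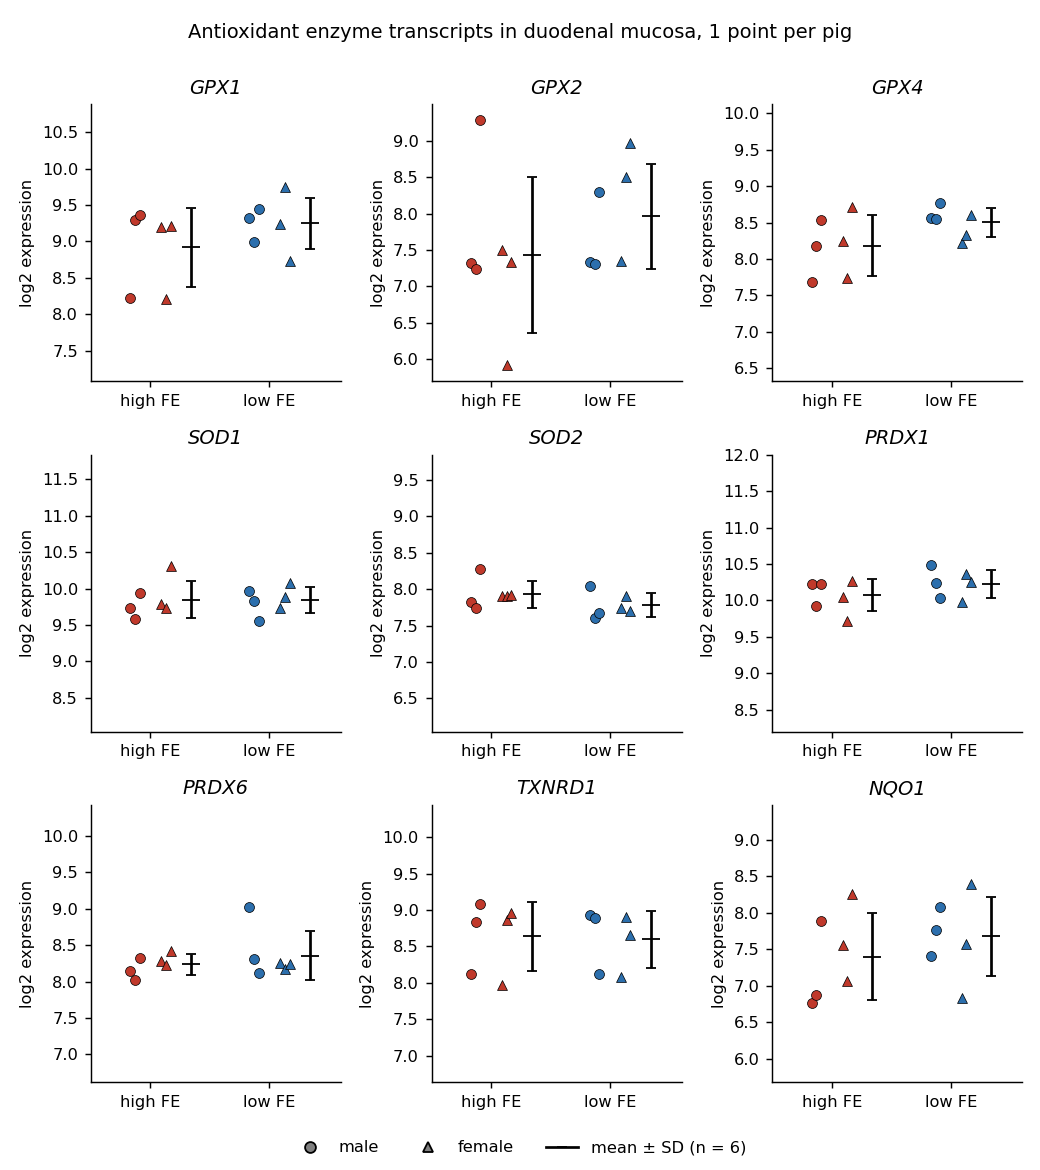
Log2 expression (y axis) of the 9 antioxidant enzyme genes in high FE (left, red) and low FE (right, blue), 1 point per pig, circles for males and triangles for females, with mean ± SD (n = 6) beside each group; every panel spans the same number of log2 units around its own centre. The groups overlap in every panel, and the GPX2 values spread widest, from 5.92 to 9.28.

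The direction of several of these differences turned on the 3 high FE arrays that were lowest on the first principal component. Without them, which leaves 3 high FE and 6 low FE pigs, 8 of the 9 genes had a difference above 0 and the median was 0.10, while the median over all probe sets was -0.02. GPX1 then averaged 9.26 in high FE and 9.25 in low FE, a difference of 0.02. GPX4 averaged 8.50 in high FE and 8.51 in low FE, and the model difference was 0.03. NQO1 gave 0.24, GPX2 gave 0.10 and PRDX6 gave 0.01, and only PRDX1 remained below 0, at -0.03. With array background in the model, 5 of the 9 differences were above 0 and the median was 0.01. In that model GPX2 had 0.01 and NQO1 had 0.13, whereas GPX1, GPX4, PRDX1 and PRDX6 had -0.14, -0.09, -0.10 and -0.17. No gene passed the adjusted threshold in either setting. Within the first identifier run the difference was 0.26 for GPX2 and -0.01 for SOD1, while the other 7 genes kept their sign. The second run holds 4 females, 2 of each FE group, and gave no value of its own.

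**Figure D2:**
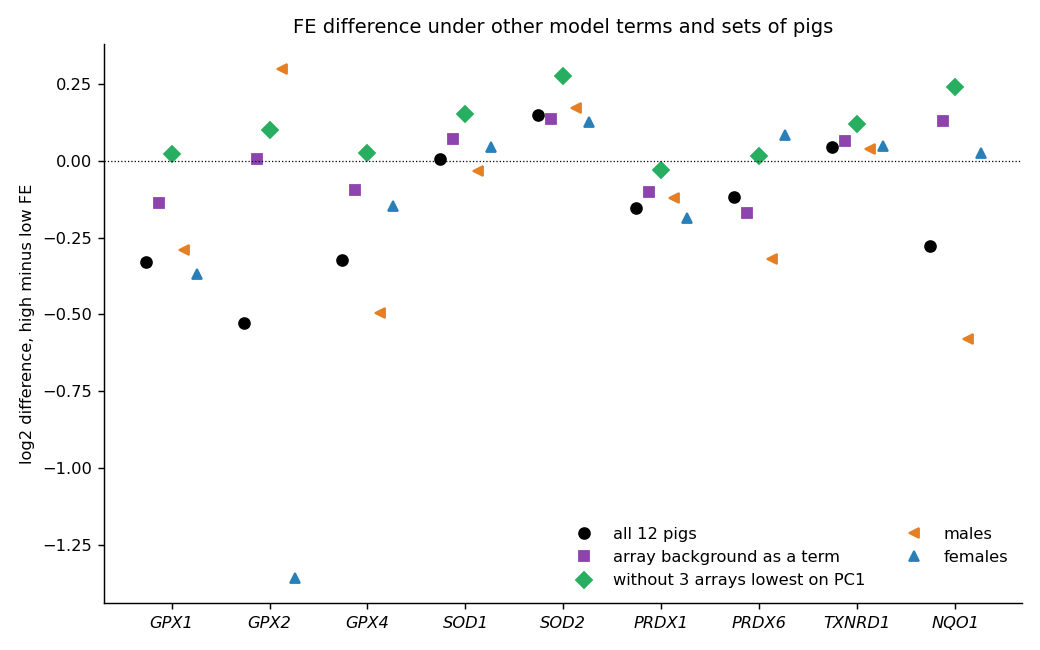
Log2 difference, high minus low FE (y axis), of each of the 9 genes (x axis) over all 12 pigs, with array background in the model, without the 3 arrays that ranked lowest on principal component 1 (high FE pigs 1, 2 and 5), in males and in females. Without the 3 arrays, 8 of the 9 points lie above 0, and the GPX2 points of males (0.30) and females (-1.36) lie farthest apart.

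Probe sets of 1 symbol did not always give the same FE difference. The 2 probe sets of GPX2 gave -0.53 and -0.35, and those of TXNRD1 gave 0.04 and 0.01. The 5 probe sets of SOD1 ran from -0.28 to 0.55, with 3 above and 2 below 0. The SOD1 probe set with 0.55 averaged 4.58, and the others averaged between 7.85 and 9.84. GPX4 had -0.32, -0.03 and -0.37 in its 3 probe sets, which averaged 8.34, 7.51 and 4.95. SOD2 had 0.15 and 0.38 in probe sets that averaged 7.85 and 4.17. The second probe set of PRDX6, which averaged 2.57 and so lay close to the array background, gave 0.03 against -0.12. None of the 19 passed the adjusted or the unadjusted threshold.

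**Figure D3:**
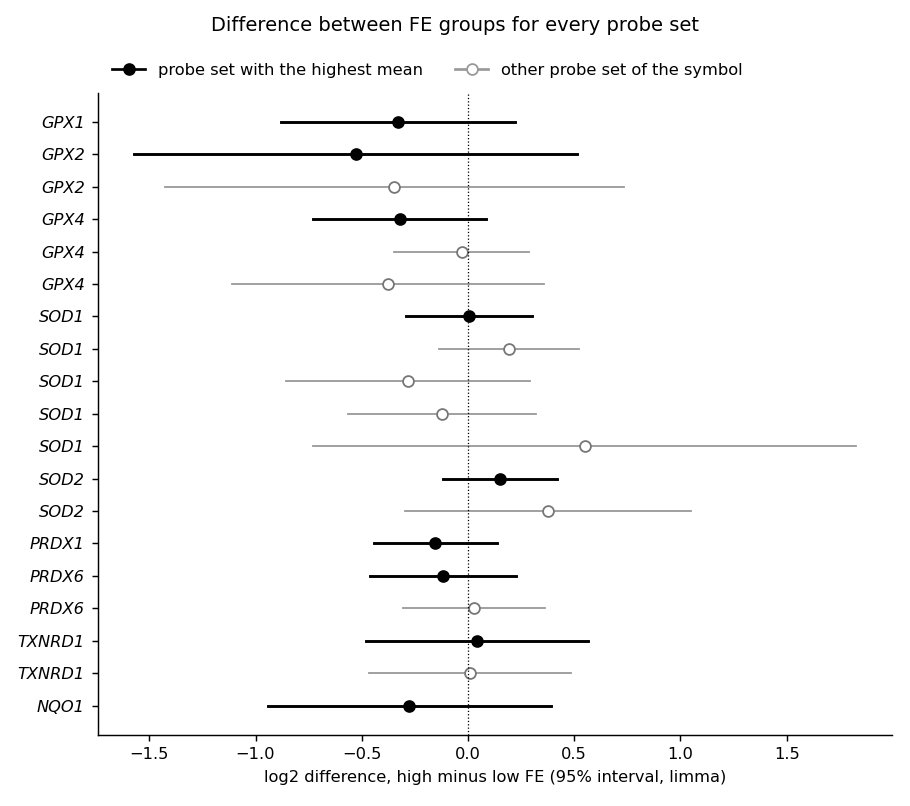
Log2 difference, high minus low FE (x axis), with its 95% interval from limma for each of the 19 probe sets (rows, by gene symbol), filled black for the brightest probe set of a gene and open grey for the others. Every interval covers 0, and the widest belongs to a SOD1 probe set with a difference of 0.55 and a mean level of 4.58.

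Over the 12 pigs, probe sets of 1 symbol tracked each other closely for GPX2 and loosely for SOD1. The 2 GPX2 probe sets had a Pearson r of 0.939 (adjusted permutation p = 3.40e-04 over 17 such pairs) and a Spearman rho of 0.755. Without the 2 pigs farthest from the median, r was 0.868. The 2 TXNRD1 probe sets shared the gap in their values, so r is given among the 8 pigs above it, where it was 0.720 (rho = 0.595). In all, 5 of the 17 pairs passed an adjusted p of 0.05, namely those of GPX2 and TXNRD1, 2 of GPX4 and 1 of SOD1. Without the 2 farthest pigs 2 passed, those of GPX2 and TXNRD1, and within the first identifier run 1 passed, that of TXNRD1. Without high FE pigs 1 and 5 the r of the 2 passing GPX4 pairs was 0.571 and 0.148, against 0.700 and 0.719 over all pigs, so the second of them rests on those 2 pigs. The 10 pairs among SOD1 probe sets ran from 0.110 to 0.797.

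No difference between males and females passed the test in any of the 9 genes. Every male is in the first identifier run, so sex is partly confounded with run. With the run in the model the sex differences of GPX1, SOD1 and NQO1 changed sign. The male mean less the female mean was above 0 for 7 genes and below 0 for the other 2, against 49.4% of all probe sets below 0, and it ran from -0.15 to 0.20, with a median of 0.06, and 0 of the 9 passed the adjusted or the unadjusted threshold in limma. Male and female groups overlapped for all 19 probe sets, against 0.269% of all probe sets with groups apart. Over all probe sets 0.0210% passed the adjusted threshold and 4.54% the unadjusted one. GPX2 had the largest difference above 0, with a lowest value of 7.24, a median of 7.33 and a highest value of 9.28 in males, against 5.92, 7.43 and 8.97 in females. The male median was below the female one although the male mean was higher, 7.80 ± 0.83 against 7.60 ± 1.06 (SD, n = 6 each). SOD1 had the lowest unadjusted p, 0.289, with values of 9.56, 9.78 and 9.97 in males, against 9.73, 9.83 and 10.31 in females. Its difference was -0.15 ± 0.14 (SE, adjusted p = 0.975, limma), and NQO1 differed by -0.15 ± 0.31.

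The design crosses FE and sex, so the FE difference of all 9 genes was compared between the sexes. GPX2 had the largest interaction of the 9 and the lowest unadjusted p (limma), and it is followed here with those values known. High FE males had 7.24, 7.32 and 9.28, against 7.32, 7.34 and 8.29 in low FE males. High FE females had 5.92, 7.33 and 7.50, against 7.35, 8.50 and 8.97 in low FE females. In males 2 of the 3 pigs of either group lay close to 7.3, and in females 2 of the 3 high FE pigs lay below all low FE pigs. Within either sex 0 of the 9 genes had an unadjusted p under 0.05 for FE, against 5.61% of all probe sets in males and 3.67% in females. The FE difference of GPX2 was 0.30 ± 0.62 (SE) in males and -1.36 ± 0.62 in females, where the unadjusted p was 0.050 and the adjusted p 0.9995 (limma). The difference between the sexes was 1.65 ± 0.87 (SE), with a 95% interval of -0.26 to 3.57, an unadjusted p of 0.0845 and an adjusted p of 0.998. It was 0.99 without high FE pig 3, the pig with the highest GPX2 value, and 1.83 ± 0.88 in the second GPX2 probe set, and it passed adjustment in neither. Without high FE pigs 1, 2 and 5 the value was 2.49, but high FE pig 3 is then the only high FE male, so that this value is no check of the interaction. Without high FE pig 3 the FE difference in males was -0.37, and without high FE pig 5 that in females was -0.86. Over all single pigs left out, the FE difference in females ran from -1.82 to -0.86. Low FE pig 6, the female with the GPX2 value of 8.97, was also the pig whose pancreatic acinar markers reached 6.49. The part of that in its GPX2 value was not tested.

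For this interaction 0 of the 9 genes passed either threshold, against 0.00299% of all probe sets at the adjusted and 3.27% at the unadjusted one. Apart from GPX2 the largest interaction was that of NQO1, -0.61 ± 0.61, with an FE difference of -0.58 ± 0.43 in males and 0.03 ± 0.43 in females. GPX4 had -0.50 ± 0.27 in males (unadjusted p = 0.0898) and -0.15 ± 0.27 in females. PRDX6 had -0.32 ± 0.22 in males and 0.08 ± 0.22 in females, and the low FE male pig 1 held the highest value.

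The genes listed as sources of superoxide and hydrogen peroxide include DUOX2, the dual oxidase that releases hydrogen peroxide at the epithelial surface. DUOX2 had its group means in the same order as GPX2. It had 5.85, 6.19 and 6.89 in high FE males, against 4.99, 5.43 and 5.53 in low FE males. It had 5.02, 5.16 and 5.53 in high FE females, against 5.68, 5.96 and 7.34 in low FE females. The FE groups did not overlap in either sex and lay in opposite order, which held for 0.308% of all probe sets. DUOX2 was named for its interaction p, so this order is no separate support for the interaction. The interaction was 2.09 ± 0.57 (SE), with an unadjusted p of 0.00346 and an adjusted p of 0.998 (limma), so it did not pass. The second DUOX2 probe set gave 2.09 (unadjusted p = 0.00708). Without high FE pigs 1, 2 and 5 the value was 2.81, which again rests on high FE pig 3 as the only high FE male. In the same list DUOX1, DUOXA1 and DUOXA2 had interactions of 0.08, 0.41 and 0.75 (unadjusted p = 0.869, 0.221 and 0.188, limma).

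**Figure D4:**
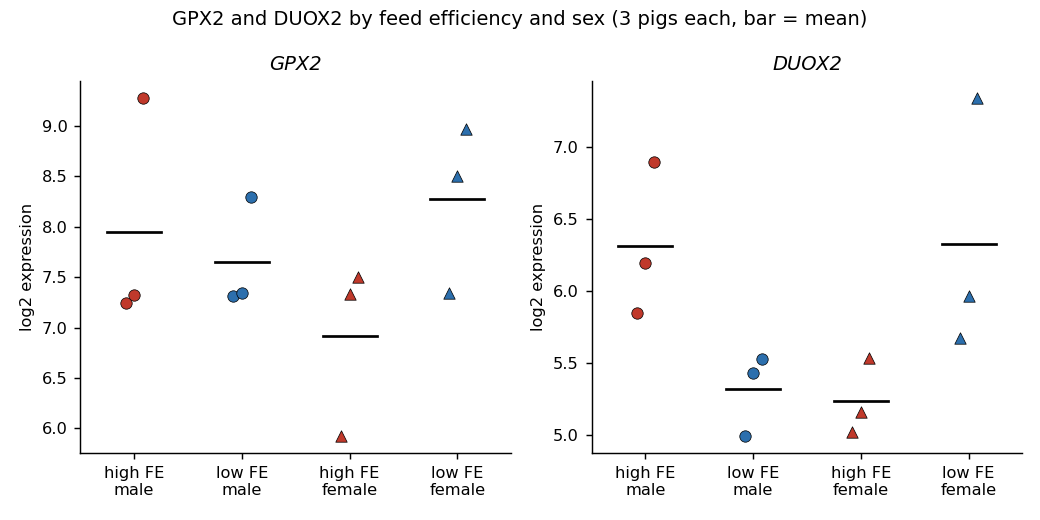
Log2 expression (y axis) of GPX2 (left) and DUOX2 (right) in high FE males, low FE males, high FE females and low FE females, 1 point per pig with a bar at the mean of 3 pigs. DUOX2 is higher in high FE males (5.85 to 6.89) than in low FE males (4.99 to 5.53) and the other way round in females, while the GPX2 groups overlap in both sexes.

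The 9 genes varied to very different degrees among pigs after FE and sex were fitted as separate terms. This residual spread includes any interaction of FE and sex. GPX2 had a residual SD of 0.96 after FE and sex, above that of 97.5% of all probe sets tested, whose median was 0.298. NQO1 had 0.60, above 89.0%, GPX1 had 0.48, above 81.2%, and TXNRD1 had 0.46, above 78.3%. GPX4 and PRDX6 were near the middle, with 0.34 and 0.27. The lowest values belonged to the brightest probe set of SOD1 with 0.22, to PRDX1 with 0.21 and to the brightest probe set of SOD2 with 0.19, below which lay 25.1%, 23.3% and 15.1% of all probe sets. Other probe sets of 2 of these genes varied more. The other 4 of SOD1 had 0.26, 0.51, 0.38 and 1.18, the last above 98.8% of all probe sets, and the second of SOD2 had 0.60, above 89.3%. The 3 probe sets of GPX4 ran from 0.24 to 0.66. The SOD1 probe sets with 0.22 and 0.26, which averaged 9.84 and 9.61, both lay below the median of all probe sets. The SOD1 probe set with 1.18 averaged 4.58, and the second of SOD2 averaged 4.17. A low spread of SOD1 and SOD2 therefore does not hold for every probe set of either symbol.

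Across the 12 pigs, 34 of the 36 pairs of genes correlated positively, with a median Pearson r of 0.339, and 5 pairs had an unadjusted permutation p under 0.05. The share of positive pairs among all genes of the array was not computed, so this count is not read as a result about the enzymes. The pairs with TXNRD1 are counted here, and because of the gap in its values none is read on its own. GPX4 and NQO1 were the 1 pair that passed the threshold after adjustment over the 36 pairs, with r = 0.818 (permutation p = 9.10e-04, adjusted p = 0.0328) and rho = 0.867 (permutation p = 5.80e-04, adjusted p = 0.0128). High FE pigs 1, 2 and 5 and low FE pig 4 had the 4 lowest values of both genes, and high FE pig 6 and low FE pigs 3 and 6 had the 3 highest. Within high FE r was 0.893 and within low FE it was 0.773. Without high FE pigs 1, 2 and 5 it was 0.770 (adjusted exact permutation p = 0.241). Without high FE pigs 1 and 5, the farthest from the GPX4 median, r was 0.828 (adjusted p = 0.0835), and within the first identifier run it was 0.837 (8 pigs, adjusted exact permutation p = 0.0946). After the array background was regressed out, r was 0.532 (adjusted p = 0.318). NQO1 itself correlated with the array background at r = 0.819 and rho = 0.804 (adjusted permutation p = 0.0737 over 126 relations), and GPX4 at r = 0.754 and rho = 0.741 (adjusted permutation p = 0.0968). The part of array background in the GPX4 and NQO1 relation was not tested beyond this value.

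SOD1 and PRDX1 had r = 0.599 (adjusted permutation p = 0.289) but a Spearman rho of 0.853 (adjusted permutation p = 0.0128). After FE and sex were taken out their r was 0.816 (adjusted p = 0.0295). Without high FE pig 6 and low FE pig 6 it was 0.705 (adjusted p = 0.161). Within the first identifier run r was 0.813 (adjusted exact permutation p = 0.127). The relation therefore passed by rank and after FE and sex, and not in the other settings run. SOD1 and PRDX6 passed in the first identifier run alone, with r = 0.764 over 8 pigs (exact permutation p = 0.00104, adjusted p = 0.0375), against r = 0.484 over all 12 pigs (adjusted permutation p = 0.354). GPX1 and GPX4 had r = 0.667, which became -0.201 without high FE pigs 1 and 5 and so rests on those 2 pigs.

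**Figure D5:**
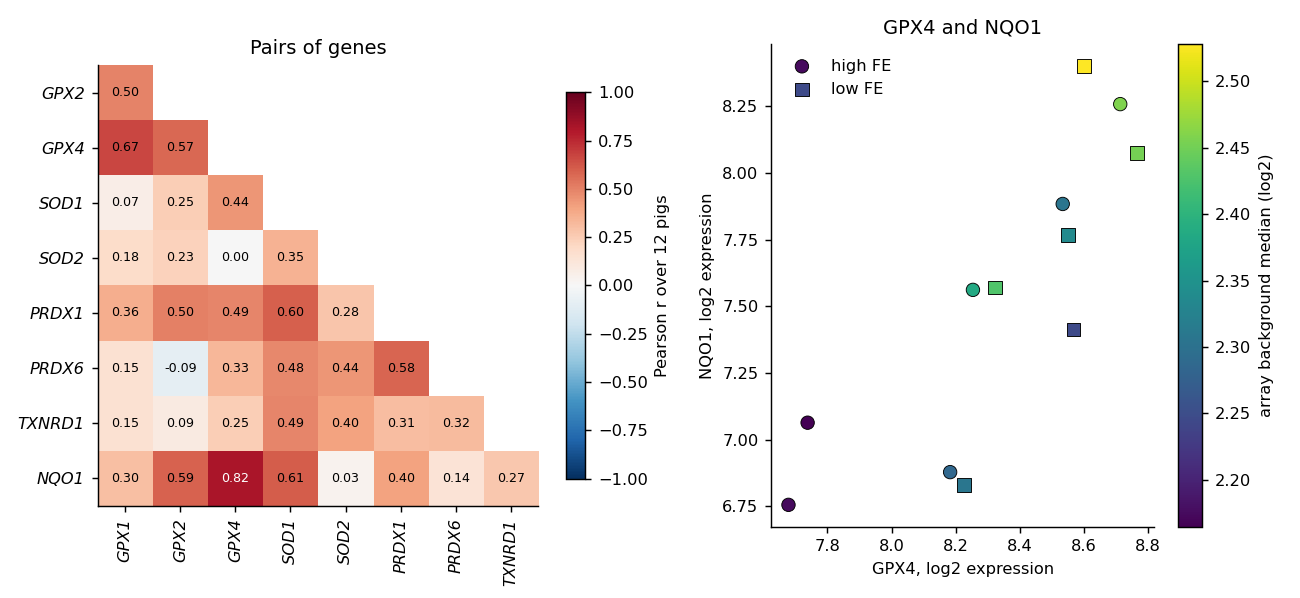
Left, Pearson r over 12 pigs for each of the 36 pairs of genes, coloured from -1 (blue) to 1 (red). Right, log2 expression of NQO1 (y axis) against GPX4 (x axis), 1 point per pig, circles for high FE and squares for low FE, coloured by array background; GPX4 and NQO1 rise together (r = 0.818), and the 2 pigs lowest in GPX4, high FE pigs 1 and 5, have the lowest array backgrounds (2.17 and 2.16).

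None of the 126 relations of a gene to the array background or to the mean level of a cell type's markers passed adjustment, and 19 had an unadjusted permutation p under 0.05. Macrophage markers, of which 3 of 6 were measured, correlated with NQO1 at r = 0.800 and rho = 0.783 (adjusted permutation p = 0.0737). They correlated with PRDX1 at r = 0.785 and rho = 0.769, and with SOD1 at r = 0.756 and rho = 0.860. Without the 2 pigs farthest from the marker median r was 0.816 for NQO1, 0.494 for PRDX1 and 0.809 for SOD1. The macrophage markers lay between 7.96 and 8.69 in high FE and between 8.20 and 8.63 in low FE. Other immune cell relations were of similar size. GPX4 had r = 0.745 with macrophage markers and 0.708 with B and plasma cell markers (adjusted permutation p = 0.102 and 0.125). SOD1 had r = 0.735 with T cell markers (adjusted permutation p = 0.102), and 0.355 without the 2 pigs farthest from the marker median. GPX2 and the 6 goblet cell markers had r = 0.661 but rho = 0.399 (adjusted permutation p of r = 0.194). The goblet cell markers ranged from 10.32 to 11.03 in high FE and from 10.73 to 11.14 in low FE. Hepatocyte markers, which the mucosa should lack, gave values as high. Their r was 0.772 with NQO1 (rho = 0.860, adjusted permutation p of r = 0.0737) and 0.878 without the 2 pigs farthest from the marker median. With GPX2 their r was 0.686 (rho = 0.671, adjusted permutation p of r = 0.176), and 0.739 without those 2 pigs. Of the 4 hepatocyte markers, ALB, APOH and SERPINC1 averaged 2.43, 2.16 and 3.02, near the array background, and TTR averaged 5.08. The part of any of these marker lists in the levels of the enzymes was not tested.

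For each gene the 2 genes with the most similar pattern over the 12 pigs were taken from 12220 genes by Pearson r. These are descriptions chosen for their r, and all share the same arrays. GPX4 lay nearest RPS10, a ribosomal protein gene (r = 0.969), and APH1A, a subunit of gamma-secretase (0.962). NQO1 lay nearest EFNA3 (0.934) and ANXA11 (0.929), GPX1 nearest SMYD5 (0.934) and CCDC120 (0.933), and PRDX1 nearest TGFBRAP1 (0.926) and NDUFA10 (0.923). GPX2 lay nearest NR5A2, a nuclear receptor of the gut and liver (0.893), and LOC100518930 (0.886). PRDX6 lay nearest MAP2K4 (0.912) and LOC100517905 (0.897). SOD1 lay nearest NLRP6 (0.881) and FAM193A (0.859), and SOD2 nearest LOC100526148 (0.853) and NIF3L1 (0.840). The genes nearest TXNRD1 were TMEM69 and EPAS1, a hypoxia-inducible factor, and among the 8 pigs above the gap in its values their r with it was 0.677 and 0.805. Several of these genes also followed the array background. The r with background was 0.781 for RPS10 and 0.834 for APH1A, 0.729 for EFNA3 and 0.804 for ANXA11, and 0.726 for NR5A2 and 0.618 for LOC100518930. For SMYD5 it was 0.580, and for the other 11 it was lower.

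Around these enzymes, 102 further genes were listed by function, and 84 of them had a probe set. GPX6, PRDX2 and XDH were below the filter and were not tested. None of the rest passed the adjusted threshold for FE, sex or the interaction. For FE, GPX3 (of 5 tested in its list), GGT1 (of 12) and FTL (of 12) had an unadjusted p under 0.05 (limma). The share over all probe sets was 5.99%. For sex PRDX4 (of 5), SLC7A11 (of 12), DIO3 (of 17), CYBB and DAO (of 13) did, against 4.54%. For the interaction DUOX2 (of 13) and SELENOM (of 17) did, against 3.27%. Of the other glutathione peroxidases, superoxide dismutases and peroxiredoxins, 5 were kept, with 3 lower in high FE and a median difference of -0.14. Over all probe sets 54.0% were lower in high FE. GPX3, the secreted glutathione peroxidase, had a lowest value of 6.14, a median of 6.78 and a highest value of 7.35 in high FE, against 6.94, 7.34 and 7.97 in low FE. The FE groups overlapped, and the difference was -0.58 ± 0.24 (SE, unadjusted p = 0.0332, adjusted p = 0.753, limma). It was -0.26 with array background in the model and -0.13 without high FE pigs 1, 2 and 5. In the second GPX3 probe set it was -0.23 (unadjusted p = 0.277, limma). PRDX4, the peroxiredoxin of the endoplasmic reticulum, averaged 8.69 ± 0.14 in males and 8.41 ± 0.16 in females (SD, n = 6 each), a difference of 0.28 ± 0.11 (SE, unadjusted p = 0.0189, adjusted p = 0.975, limma).

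In the thioredoxin and glutaredoxin system 12 of 15 genes had a difference below 0, with a median of -0.12. In glutathione synthesis and recycling 9 of 12 did, with a median of -0.06, against 54.0% of all probe sets, whose median was -0.02. Without high FE pigs 1, 2 and 5 these counts were 8 of 15 and 5 of 12. MSRB1, a selenium-dependent methionine sulfoxide reductase, averaged 6.33 ± 0.50 in high FE and 6.76 ± 0.15 in low FE (SD, n = 6 each; unadjusted p = 0.0591). TXN, thioredoxin itself, differed by -0.01 ± 0.14 (SE). GGT1, the brush border enzyme that begins glutathione breakdown outside cells, had 5.79, 6.64 and 7.34 as its lowest, median and highest values in high FE, against 6.44, 7.34 and 8.09 in low FE. The groups overlapped, with a difference of -0.74 ± 0.34 (SE, unadjusted p = 0.0488, adjusted p = 0.753, limma), and it was -0.60 without high FE pigs 1, 2 and 5 (unadjusted p = 0.191). SLC7A11, the cystine importer, averaged 3.83 ± 0.41 in males and 3.39 ± 0.34 in females (SD, n = 6 each; unadjusted p = 0.0376). Its other probe sets were below the filter and were not tested.

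NRF2 itself (NFE2L2) averaged 9.81 ± 0.50 in high FE and 9.60 ± 0.30 in low FE (SD, n = 6 each), a difference of 0.21 ± 0.23 (SE). Of 7 NRF2 regulators kept, 4 were below 0 with a median of -0.06, and 7 were with array background in the model. MAFF, a small Maf partner of NRF2, had the lowest unadjusted p, 0.175. All 12 measured NRF2 targets other than those above had a difference below 0, with a median of -0.24, against 54.0% of all probe sets below 0. That count was 11 with array background in the model and 8 without high FE pigs 1, 2 and 5. FTL, the ferritin light chain, had a lowest value of 11.91, a median of 12.11 and a highest value of 12.55 in high FE, against 12.30, 12.47 and 12.53 in low FE. Its difference was -0.28 ± 0.13 (SE, unadjusted p = 0.0496, adjusted p = 0.753, limma), and it was -0.20 after quantile normalization (unadjusted p = 0.140). With array background in the model it was -0.18 (unadjusted p = 0.172), and without high FE pigs 1, 2 and 5 it was -0.14 (unadjusted p = 0.382). This FTL probe set averaged 12.31. The other FTL probe sets tested averaged 6.38 or less, with FE differences from -0.36 to 0.06 and a lowest unadjusted p of 0.0745 (limma).

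Of 17 genes for selenoproteins and their synthesis, 11 had a difference below 0, with a median of -0.05, against 54.0% of all probe sets. Without high FE pigs 1, 2 and 5 the count was 6. SELENOK, a selenoprotein of the endoplasmic reticulum, had the lowest unadjusted p for FE, 0.0533, with 6.18 ± 0.11 in high FE and 5.97 ± 0.08 in low FE (SD, n = 6 each). SELENOM had an interaction of -1.0 ± 0.41 (SE, unadjusted p = 0.0335), while its second probe set had an interaction of -0.33 and an FE difference of -0.46 (unadjusted p = 0.0155). DIO3, which inactivates thyroid hormone, averaged 4.34 ± 0.20 in males and 4.69 ± 0.26 in females (SD, n = 6 each; unadjusted p = 0.0357). Its second probe set differed by -0.15 between the sexes (unadjusted p = 0.187, limma). All 13 kept genes listed as sources of superoxide and hydrogen peroxide had a difference below 0, with a median of -0.15, against 54.0% of all probe sets. The count was 9 of 13 with array background in the model and 10 of 13 without high FE pigs 1, 2 and 5. AOX1, aldehyde oxidase, had the lowest unadjusted p for FE in this list, 0.101 (limma). Between the sexes CYBB, the catalytic subunit of the phagocyte oxidase, averaged 7.61 ± 0.15 in males and 7.34 ± 0.12 in females (SD, n = 6 each; unadjusted p = 0.0263). The other CYBB probe sets differed by 0.18, 0.11, 0.50 and 0.05 (unadjusted p = 0.201, 0.490, 0.166 and 0.776, limma). DAO, D-amino acid oxidase, averaged 8.38 ± 0.41 in males and 8.83 ± 0.31 in females (unadjusted p = 0.0373).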

How the data were processed

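Values were log2 expression values as deposited by the authors, 1 column per pig, read as log2 from the values (0.21 to 14.21) and not stated in the labels. Per the submitters' processing notes GCOS 1.1.1 was used. For background correction, normalization and summarization no source used here gives a method. No coordinates are printed, because no genome build is named for the array. Precision is limited by how many arrays there are.

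Of 47845 probe sets, 123 controls were left out. The 33405 whose mean exceeded the 30th percentile (2.37 on the log2 scale) entered lmFit and eBayes of limma 3.58.1 (R 4.3.3), with Benjamini-Hochberg adjustment and a threshold of 0.05. FE and sex were terms of the main model, and a second model gave each combination of them its own mean. All 19 probe sets of the antioxidant enzymes passed the filter. The replicates are separate pigs, numbered in the order of deposit.

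Gene symbols come from the platform annotation, which can be old, and 263 symbols were changed to a current one. Of all probe sets, 26426 had 1 symbol and 21296 other than controls had none.

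Correlations over pigs used two-sided permutation p-values (100000 resamples, SciPy 1.17.1, exact for 8 or 9 pigs), adjusted over the 36 pairs of the 9 measured genes. The planned adjustment was over the pairs of all 10. Relations to marker lists and background were added after the data were seen, as were the fits without 3 arrays, the alternatives for the GPX2 interaction, the rank correlation and the TXNRD1 values above its gap. The members, gene lists and marker lists were chosen with earlier results of these data known. Genes named from a list are those with an unadjusted p under 0.05 for FE, sex or the interaction, or else the one with the lowest p. TXN, NFE2L2 and second probe sets were named after their values were seen. The fits were tested on simulated data.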

Additional observations from a re-analysis of the deposited data

Results flagged for a closer look

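Of 36 groups of 6 pigs tested for an outlying pig (9 genes, each in high FE, low FE, males and females), 4 held one, and chance alone flags about 1 group in 20. The low FE male pig 1 had a PRDX6 value of 9.03, far from the next highest low FE pig at 8.31 and from the next highest male at 8.32. Its gap was 0.784 of the range in low FE and 0.703 in males, past Dixon's critical value. High FE pig 3 had a SOD2 value of 8.28, where the next highest high FE pig had 7.91 and the gap was 0.672 of the range. High FE pig 1 had a GPX1 value of 8.22, where the next lowest male had 8.99 and the gap was 0.629 of the range. This array was also the lowest on the first principal component, and the part of that in the GPX1 value was not tested. Without low FE pig 1 the PRDX6 difference was 0.03, and without high FE pig 3 the SOD2 difference was 0.07.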

How the results depend on the processing

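No paired analysis was possible because the labels give the pigs no shared replicate numbers. No enzyme gene passed the adjusted threshold for FE or sex under any alternative run, and no GPX2 contrast did (lowest adjusted p 0.524, for the FE difference of GPX4). The cause of each change of sign below was not tested, except that fits without pigs have fewer samples. Over all probe sets, the count past the threshold was 0 for FE, and leaving out single pigs gave 0 to 1 (1 without low FE pig 4). For sex it was 7, with 6 to 8 over single pigs left out and 3 with the identifier run in the model. For the interaction it was 1, and it became 0 with a 50th percentile filter, array weights, array background or identifier run in the model, or without high FE pigs 1, 2 and 5, which leaves 1 high FE male, assumed to vary like the others. Single pigs left out gave 0 to 1, with 1 only without low FE pigs 2 or 6. Of the 36 pairs of genes 1 passed, as 1 did in the first identifier run (SOD1 and PRDX6, not GPX4 and NQO1), against 2 after FE and sex, 2 by Spearman's rho, 0 after array background, 0 without the 2 farthest pigs and 0 without high FE pigs 1, 2 and 5.

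FE differences that turned were, with array weights, SOD1 at -0.0039 and TXNRD1 at -0.028. With array background GPX2 had 0.0056 and NQO1 had 0.13. Without high FE pigs 1, 2 and 5 GPX1 had 0.020, GPX2 0.10, GPX4 0.026, PRDX6 0.015 and NQO1 0.24. In males GPX2 had 0.30 and SOD1 -0.035, in females PRDX6 had 0.084 and NQO1 0.027, and in the first identifier run GPX2 had 0.26 and SOD1 -0.014. Other probe sets gave -0.28 and -0.12 for SOD1 and 0.029 for PRDX6. Sex differences turned for SOD2 at -0.012 (quantile normalization), -0.017 (array weights), -0.045 (mean of its probe sets) and -0.11 (other probe set), and with array weights for GPX1 at -0.018 and GPX2 at -0.067. The sex difference of NQO1 was 0.21 with array background, 0.27 with the identifier run and 0.096 without high FE pigs 1, 2 and 5. The identifier run gave GPX1 -0.12 and SOD1 0.013, and SOD1 had 0.014 as a mean of probe sets and 0.20 and 0.41 in other probe sets.

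With single pigs left out, the FE difference ran from -0.082 to 0.048 for SOD1, -0.18 to 0.025 for PRDX6 and -0.072 to 0.18 for TXNRD1, and that of GPX2 in males from -0.37 to 0.65. The sex difference ran from -0.11 to 0.21 for GPX1, -0.19 to 0.45 for GPX2, -0.020 to 0.20 for GPX4, -0.061 to 0.060 for SOD2, -0.085 to 0.12 for PRDX6, -0.045 to 0.22 for TXNRD1 and -0.36 to 0.021 for NQO1.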
